A study of Homo sapiens with 6 samples.

Results

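Voltage-gated and transient receptor potential (TRP) ion channel genes were examined in KNS42 cells, a long-established line that stems from a glioblastoma (GBM) of a child. The genes were taken by symbol, as the protein-coding rows of the deposited table that start with KCN, CLCN, CACNA, CACNB, CACNG, TRPC, TRPM or TRPV, or that name an HCN gene or an SCN alpha or beta subunit. This gave 171 of the 19799 protein-coding genes. A further 41 rows with such symbols are not protein-coding and were left out. Among the 171, TRPC4AP encodes a partner protein of TRP channels and TRPC5OS lies opposite to a TRP gene, and both are included in the counts below. Without them 169 channel genes remain. The mRNA-seq compared cells transfected with an siRNA pool directed at MSI1 (siMSI1, 3 libraries) with cells that received a control siRNA (siC, 3 libraries), each harvested after 72 h. KNS42 is a single cell line, and the labels do not say whether the libraries of a group come from separate cultures, so p-values measure only the spread between these libraries, which may be technical.

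Ion channels are pore proteins that let selected ions cross a membrane. Potassium channels hold the resting potential and end action potentials, voltage-gated sodium channels start them, and voltage-gated calcium channels turn them into a calcium signal. HCN channels open upon hyperpolarization and carry a depolarizing pacemaker current, CLC proteins move chloride across the surface or across lysosomal and endosomal membranes, and TRP channels are cation channels gated by lipids, temperature or stores. Auxiliary subunits set the trafficking and gating of the pores. Astrocytes and glioma cells are known to express several of these families, although they do not fire like neurons.

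MSI1, the RNA-binding protein that was targeted, was at 63.7, 61.9 and 66.9 FPKM (reads scaled to gene length and to library size) in siC, against 12.1, 12.3 and 11.2 FPKM in siMSI1. Its mRNA was at 18.5% of the control mean (log2 fold change -2.43 ± 0.07, SE, adjusted p = 8.71e-06). The libraries held 14448513 to 18024080 (siC) and 13087025 to 14700593 (siMSI1) reads on genes, so that 3 reads on a gene of 5 kb equal 0.0332 to 0.0458 FPKM. Of 9 neural progenitor and astrocyte markers, 8 were at 0.5 FPKM or more, with a summed level of 1471 to 1531 FPKM in the siC libraries and 1248 to 1336 FPKM in the siMSI1 libraries. Here FABP7 and SOX9 fell, and AQP4 and GFAP rose. Of 8 neuronal markers, 4 reached 0.5 FPKM, with a summed level of 25.8 to 27.3 FPKM in siC and 19.7 to 20.5 in siMSI1, SYP fell, and RBFOX3 was at 0 in each library. Of the oligodendrocyte, microglia, endothelium and muscle markers, 0 reached a mean of 0.5 FPKM over the 6 libraries. The microglia and leukocyte markers summed to 0.159 to 0.264 FPKM in the siC libraries and 0.322 to 0.553 FPKM in the siMSI1 libraries, where CD68 reached 0.509 FPKM in siMSI1 replicate 3, and the endothelium markers to 0.134 to 0.262 and 0.290 to 0.442 FPKM, with no overlap in either sum. These 2 sums rest on few reads and few genes. CD68 had 5 to 8 reads per siC library and 8 to 16 per siMSI1 library. CDH5 had 0 to 3 against 9 to 22 reads, and PECAM1 0 to 1 against 5 to 8. VWF lay mostly lower in siMSI1 (20 to 37 against 14 to 21 reads), and KDR and CLDN5 had at most 1 read. The sums of the oligodendrocyte and the muscle markers overlapped between the groups. The part of these marker shifts in the channel results was not tested, and fewer cells of a type cannot be told apart from less RNA per cell.

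Most channel genes were low or not detectable in KNS42 cells at this depth. A mean of at least 0.5 FPKM over the 6 libraries was reached by 51 of the 171 genes (29.8%), against 57.4% of all protein-coding genes, and 42 reached 1 FPKM (50 and 41 without TRPC4AP). The other genes comprise 43 under this filter with more than 3 reads in some library, 48 with 1 to 3 reads at most in any library, and 29 with no read. The median level of the 51 expressed genes was 2.90 FPKM, compared with 7.44 FPKM for the 11365 protein-coding genes that passed the same filter. CLC genes were the most broadly expressed class (6 of 9), followed by the HCN genes and the sodium channel beta subunits (2 of 4 each), the auxiliary calcium channel subunits (7 of 16) and the sodium channel pores (4 of 10). Only 1 of 10 calcium channel pores, 1 of 8 TRPM genes and 9 of 39 voltage-gated potassium channel pores passed.

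**Figure D1:**
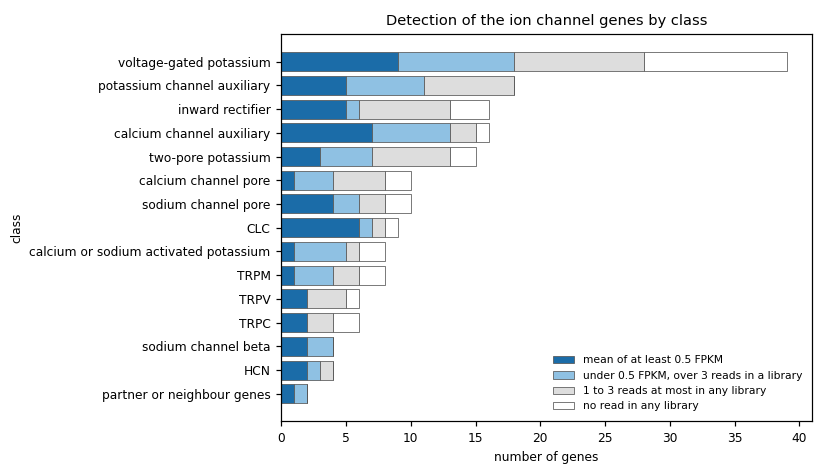
Number of genes (x axis) in each channel class (y axis), split by detection over the 6 libraries: a mean of at least 0.5 FPKM, a lower mean with over 3 reads in some library, 1 to 3 reads at most in any library, or no read. CLC is the class with the largest expressed share, 6 of 9, while 9 of 39 voltage-gated potassium channel pores are expressed.

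6 genes stood above 10 FPKM as a mean over the 6 libraries. The highest was CACNG4, a transmembrane regulator of AMPA-type glutamate receptors that is named for its likeness to a calcium channel subunit, with a mean of 86.1 FPKM, and only 2.28% of protein-coding genes were above it. It was followed by TRPC4AP (39.7 FPKM) and by CACNA1H (27.3 FPKM), the pore of a low-voltage-activated T-type calcium channel. KCNK1 (20.8 FPKM) encodes a weakly rectifying potassium leak channel of the tandem pore domain (K2P) family, HCN2 (16.9 FPKM) an HCN pore, and CLCN3 (13.6 FPKM) an endosomal chloride/proton exchanger. In the other classes the highest genes were SCN3A (7.96 FPKM), KCNJ8 (7.64 FPKM), KCNH3 (5.25 FPKM), TRPM7 (4.73 FPKM), KCNMB4 (3.91 FPKM), TRPC1 (2.90 FPKM), KCNN4 (2.73 FPKM), TRPV1 (1.39 FPKM) and SCN4B (0.534 FPKM). These means take in both groups, and 2 of these genes led only through siMSI1. In siC alone, SCN1A (mean 5.88 FPKM) was above SCN3A (5.65 FPKM), and SCN3B (0.735 FPKM) was above SCN4B (0.284 FPKM). KCNH3 led only through siC. In siMSI1 alone, KCNH4 (mean 5.10 FPKM) and KCND3 (4.51 FPKM) were above KCNH3 (4.46 FPKM).

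Some auxiliary subunits were expressed while the pores they are known for were near zero. The high-voltage-activated calcium channel pores CACNA1A, CACNA1B, CACNA1C, CACNA1D, CACNA1E, CACNA1F and CACNA1S had at most 11 reads in any library, whereas the subunits that such pores use, CACNA2D3, CACNB3 and CACNA2D1, were at 9.25, 9.05 and 7.63 FPKM. KCNMB4, a beta subunit of the large-conductance calcium-activated potassium channel, was at 3.91 FPKM, and the gene of that pore, KCNMA1, had 0 to 8 reads per library. The near-identical inward rectifier genes KCNJ12 and KCNJ18 had at most 2 reads, and reads of such copies can be lost or split in counting.

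**Figure D2:**
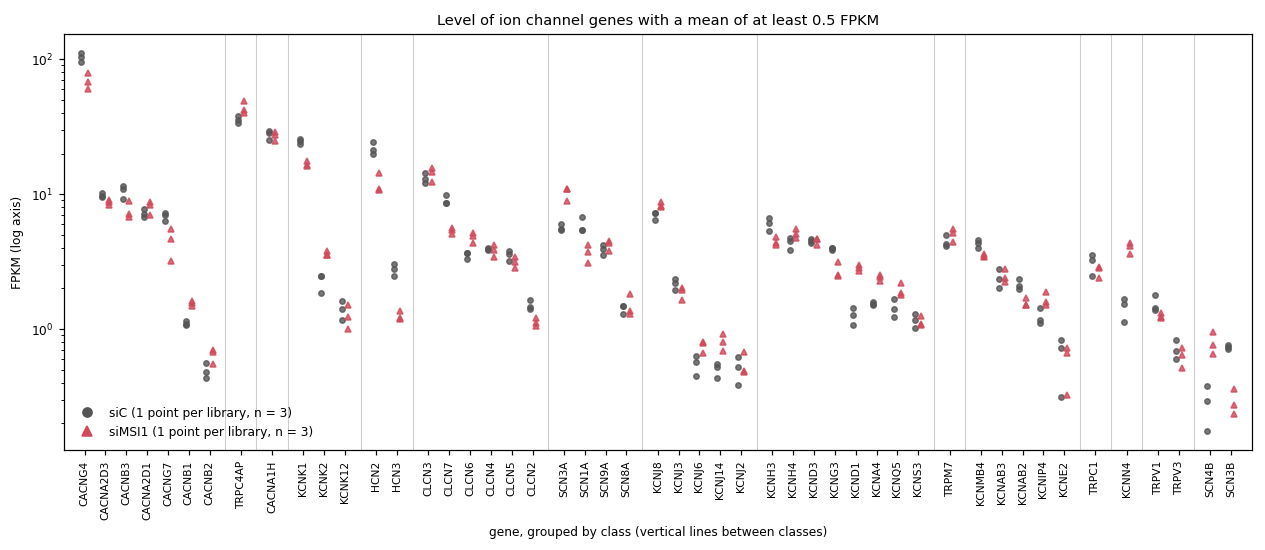
FPKM on a log axis (y axis) of 49 of the 51 expressed genes (x axis, grouped by class), with 1 point per library for siC (circles) and siMSI1 (triangles). CACNG4 is the highest at a mean of 86.1 FPKM, and most genes lie between 1 and 10 FPKM.

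MSI1 knockdown changed 9 of the 51 expressed genes, with 5 lower and 4 higher. HCN3, HCN2, CLCN7, CACNG4 and KCNK1 fell, and KCNN4, KCND1, SCN3A and KCNA4 rose. The test was limma on log2(FPKM + 0.1), with p-values adjusted over 15069 genes and the threshold of the study, an adjusted p of 0.01. The 9 genes are 17.6% of those tested, against 13.1% of the tested protein-coding genes and 11.0% of all tested genes. Falls made up 9.80% of the channel genes and 7.09% of protein-coding genes, and rises 7.84% and 6.01%. In this fit, the share in either direction was thus close to the background. The libraries of the groups did not overlap for 31 genes (60.8%), compared with 48.4% of protein-coding genes. Without TRPC4AP the calls were 9 of 50 (18.0%) and the genes without overlap 30 (60.0%). The median log2 fold change was -0.02 and its median size 0.33, against -0.01 and 0.21 for protein-coding genes, whose levels are higher. With each library centred on its median, 9 calls split into 4 lower and 5 higher, since the log2 fold change of CACNG4 lost its call (adjusted p = 0.0139) and the log2 fold change of KCNK2 gained one (adjusted p = 0.00942). Without siC replicate 1 only KCNN4, SCN3A, KCND1 and CLCN7 were called. With limma's voom on reads recovered from FPKM, 19 of the 51 genes passed (37.3%), 12 lower and 7 higher, against 22.9% of the tested protein-coding genes. These 19 hold all 9 genes named above and 10 more, namely CACNB3, CACNG7, CLCN6, KCNAB2, KCNG3, KCNH3, KCNK2, SCN1A, SCN3B and SCN4B. Of these, SCN3B and SCN4B reached 0.5 FPKM only through the group where they were higher, which favours a difference. Both are also counted among the 31 genes without overlap, and neither count is taken as support for a change in them.

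**Figure D3:**
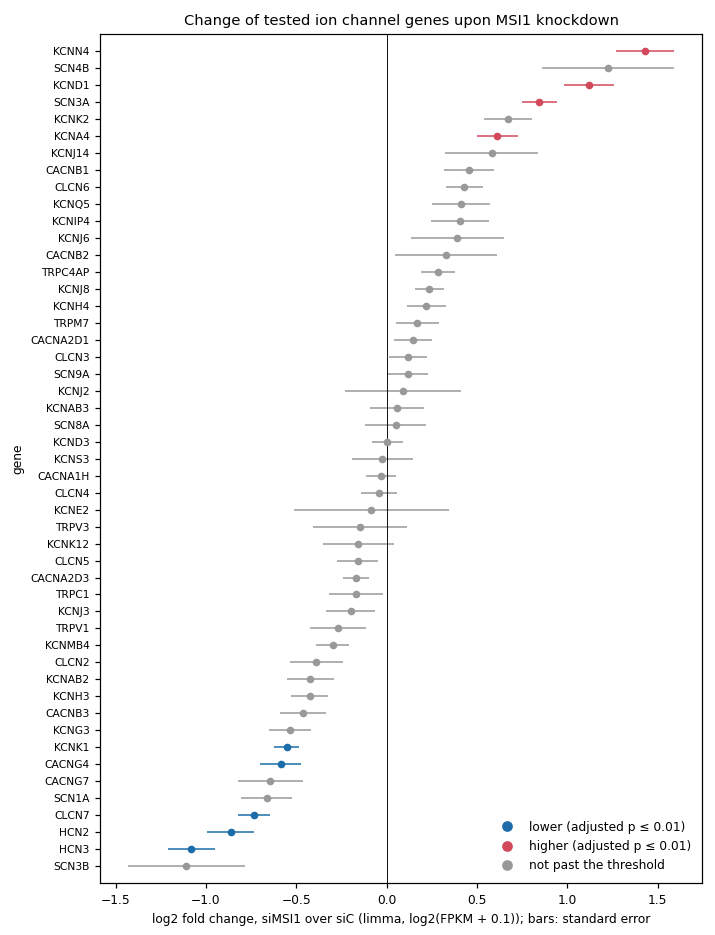
log2 fold change of siMSI1 over siC on the log2(FPKM + 0.1) scale (x axis) for 49 of the 51 tested genes (y axis), with bars of 1 standard error. Coloured points pass an adjusted p of 0.01, and the changes run from -1.11 (SCN3B, not past the threshold) to 1.43 (KCNN4).

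The proximal promoters of the genes with the largest called falls, HCN3 and HCN2, and the largest called rises, KCNN4 and KCND1, are shown to give their sequence context. Each run holds 250 bases before and 50 bases after the RefSeq start (GRCh38.p14), 5′ to 3′ on the strand of the gene. Capitals mark matches, on either strand, to the letters of a GC box (GGGCGG), the element bound by TATA-binding protein (TATAAA), an AP-1 site (TGANTCA), a cAMP response element (TGACGTCA) or the left part of the RE1 element (TTCAGCACC). The HCN3 promoter lies at chr1:155277213-155277512 on the plus strand, HCN2 at chr19:589631-589930 on the plus strand, KCNN4 at chr19:43780924-43781223 on the minus strand and KCND1 at chrX:48971795-48972094 on the minus strand.
HCN3: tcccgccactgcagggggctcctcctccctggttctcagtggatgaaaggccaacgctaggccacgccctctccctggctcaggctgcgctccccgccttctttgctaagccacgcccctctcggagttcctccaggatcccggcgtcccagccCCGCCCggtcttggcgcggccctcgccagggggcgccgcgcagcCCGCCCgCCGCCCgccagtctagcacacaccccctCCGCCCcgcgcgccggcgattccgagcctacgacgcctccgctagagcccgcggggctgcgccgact
HCN2: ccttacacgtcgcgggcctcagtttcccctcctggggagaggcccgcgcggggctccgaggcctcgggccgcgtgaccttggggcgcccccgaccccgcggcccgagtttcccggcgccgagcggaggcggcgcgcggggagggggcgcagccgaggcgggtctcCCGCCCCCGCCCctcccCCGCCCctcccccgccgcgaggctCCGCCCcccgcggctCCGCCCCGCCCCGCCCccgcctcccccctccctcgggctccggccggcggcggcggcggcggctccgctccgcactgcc
KCNN4: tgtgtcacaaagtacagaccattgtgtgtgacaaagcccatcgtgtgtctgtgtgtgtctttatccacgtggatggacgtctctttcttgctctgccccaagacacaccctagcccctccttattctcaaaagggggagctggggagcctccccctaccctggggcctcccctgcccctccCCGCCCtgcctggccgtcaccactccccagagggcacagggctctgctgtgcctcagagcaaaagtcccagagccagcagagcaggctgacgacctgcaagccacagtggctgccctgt
KCND1: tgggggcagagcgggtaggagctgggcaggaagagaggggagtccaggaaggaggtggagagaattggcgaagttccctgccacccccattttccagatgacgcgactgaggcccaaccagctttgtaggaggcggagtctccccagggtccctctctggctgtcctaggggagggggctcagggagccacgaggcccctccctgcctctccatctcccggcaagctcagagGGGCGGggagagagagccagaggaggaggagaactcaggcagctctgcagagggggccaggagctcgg

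All the capitals in these 4 promoters are GC boxes, 4 in HCN3, 7 in HCN2 and 1 each in KCNN4 and KCND1, where overlapping matches were counted separately. RefSeq promoters were matched for 40 of the 51 tested genes, and 32 of these (80.0%) hold a GC box, against 44.6% of all 27305 promoters. Their median GC content was 69.5%, against 58.3% for all promoters. The TATAAA letters were found in 5.0% of the matched channel promoters and 12.0% of all, AP-1 letters in 5.0% and 7.76%, the cAMP response element in 2.5% and 1.98%, and the left part of RE1 in 0% and 0.403%. The 40 genes had passed the filter of 0.5 FPKM, which was not applied to all 27305 promoters. The part of expression in these differences was not tested, so they cannot be credited to the channel family. Of the 9 changed genes, 7 were matched and all 7 hold a GC box, both those that fell and those that rose.

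Both expressed HCN genes fell upon MSI1 knockdown. HCN3 (ENSG00000143630, chr1:155277463-155289848, plus strand) was at 2.77, 2.49 and 3.02 FPKM in the siC libraries and 1.20, 1.18 and 1.37 FPKM in the siMSI1 libraries. HCN2 (ENSG00000099822, chr19:589881-617159, plus strand), a pore that responds strongly to cAMP, was at 21.2, 19.7 and 24.4 FPKM in the siC libraries and 10.9, 10.7 and 14.3 FPKM in the siMSI1 libraries. For both, each siMSI1 library was lower than each siC library. The log2 fold change was -1.08 ± 0.13 (SE) for HCN3, with an adjusted p of 0.00135, and -0.86 ± 0.13 for HCN2, with an adjusted p of 0.00332. The summed HCN level went from 24.7 ± 2.64 (SD, n = 3) to 13.3 ± 2.22 FPKM, with HCN2 holding 87.7% to 90.5% of it in each library. HCN4 had 18 to 21 reads per siC library and 2 to 15 per siMSI1 library, too few for the filter. HCN3 lost its call without siC replicate 1 (adjusted p = 0.0105). HCN2 was called only without siC replicate 2 or siMSI1 replicate 3 among the fits that leave out 1 library, and its adjusted p was 0.0153 without siC replicate 1, 0.0129 without siC replicate 3, 0.0143 without siMSI1 replicate 1 and 0.0127 without siMSI1 replicate 2.

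Among the CLC genes, CLCN7, the chloride/proton exchanger of lysosomes, fell. CLCN7 (ENSG00000103249, chr16:1444934-1475077, minus strand) was at 8.56, 8.54 and 9.90 FPKM in the siC libraries and 5.04, 5.40 and 5.63 FPKM in the siMSI1 libraries, with no overlap between the groups. Its log2 fold change was -0.74 ± 0.09 (SE, adjusted p = 0.00137), and the call held without any one library. CLCN6, the exchanger of late endosomes, had higher values in siMSI1, at 3.31, 3.65 and 3.66 FPKM in the siC libraries and 4.94, 4.33 and 5.17 FPKM in the siMSI1 libraries, and did not pass the threshold in limma on log2 FPKM (log2 fold change 0.43 ± 0.10, adjusted p = 0.0188). With voom CLCN6 passed (log2 fold change 0.44 ± 0.10, adjusted p = 0.00398). The FPKM ratio of CLCN6 to CLCN7 was 0.394 ± 0.0296 (SD, n = 3) in siC and 0.900 ± 0.0904 in siMSI1. The endosomal exchangers CLCN3, CLCN4 and CLCN5 and the surface channel CLCN2 had log2 fold changes of 0.12, -0.04, -0.16 and -0.39, and 0 of these 4 passed in limma, 1 at an unadjusted p under 0.05 and 0 with voom on the recovered reads. The summed CLC level was 34.7 ± 0.951 FPKM in siC and 32.5 ± 1.04 in siMSI1.

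CACNG4 fell within an otherwise mixed group of calcium channel subunits. CACNG4 (ENSG00000075461, chr17:66964707-67033398, plus strand) was at 105, 94.6 and 111 FPKM in the siC libraries and 67.8, 59.8 and 79.5 FPKM in the siMSI1 libraries. The groups did not overlap, although siMSI1 replicate 3 lay nearer to siC than the other siMSI1 libraries. The log2 fold change was -0.59 ± 0.11 (SE, adjusted p = 0.00841). Among the fits without 1 library the call held only without siMSI1 replicate 3 (adjusted p = 0.00248), and the adjusted p was 0.0364, 0.0149 and 0.0322 without siC replicates 1, 2 and 3 and 0.0277 and 0.0215 without siMSI1 replicates 1 and 2. On the opposite strand, the non-coding gene AC005544.2 shares 229 exon bases with CACNG4 and was at a mean of 24.8 FPKM, with a log2 fold change of -0.46 (adjusted p = 0.202).

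The other auxiliary calcium channel subunits had values in both directions, and 0 of 6 passed in limma, 4 at an unadjusted p under 0.05 and 2 (CACNB3 and CACNG7) with voom on the recovered reads. CACNG7, a relative of CACNG4 that also acts on AMPA-type receptors, was at 7.03, 6.32 and 7.25 FPKM in the siC libraries and 3.22, 4.63 and 5.50 FPKM in the siMSI1 libraries (log2 fold change -0.64, adjusted p = 0.0350). The cytoplasmic beta subunits CACNB3 and CACNB1 had log2 fold changes of -0.46 and 0.45 (adjusted p = 0.0327 and 0.0475), so that the FPKM ratio of CACNB3 to CACNB1 was 9.53 ± 0.931 (SD, n = 3) in siC and 4.94 ± 0.967 in siMSI1. CACNB3 passed the threshold only without siMSI1 replicate 3 among the fits that leave out 1 library (adjusted p = 0.00912). CACNA2D3, CACNA2D1 and CACNB2 had log2 fold changes of -0.17, 0.15 and 0.33. CACNB2 reached the mean of 0.5 FPKM only through siMSI1 (0.642 FPKM, against 0.492 FPKM in siC). CACNA1H, which held at least 99.7% of the calcium channel pore FPKM in each library, was at 28.5, 25.3 and 29.2 FPKM in the siC libraries and 27.3, 24.8 and 28.9 FPKM in the siMSI1 libraries, and the groups overlapped (log2 fold change -0.03 ± 0.09, adjusted p = 0.822).

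The sodium channel pores differed among themselves, with SCN3A higher and SCN1A lower in the siMSI1 libraries. SCN3A (ENSG00000153253, chr2:165087526-165204050, minus strand), an alpha subunit known from the embryonic brain, was at 5.49, 5.99 and 5.47 FPKM in the siC libraries and 10.9, 11.0 and 8.97 FPKM in the siMSI1 libraries. Each siMSI1 library exceeded each siC library, and SCN3A rose by 0.85 ± 0.10 on the log2 scale (SE, adjusted p = 0.00121), a call that held without any one library. SCN1A, the alpha subunit best known from inhibitory neurons, was at 5.40, 6.83 and 5.41 FPKM in the siC libraries and 4.20, 3.76 and 3.07 FPKM in the siMSI1 libraries. These groups did not overlap. SCN1A did not pass in limma on log2 FPKM (log2 fold change -0.66 ± 0.14, adjusted p = 0.0137) and passed with voom on the recovered reads (-0.68 ± 0.12, adjusted p = 0.000396). SCN9A, known from sensory neurons, and SCN8A, known from the axon initial segment, had log2 fold changes of 0.12 and 0.05 (adjusted p = 0.487 and 0.862).

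Of the summed sodium channel pore FPKM, SCN3A held 33.4% ± 1.20 (SD, n = 3) in siC and 51.7% ± 1.59 in siMSI1, and SCN1A held 34.6% ± 1.86 and 18.4% ± 0.80. The share of SCN9A was 22.9% ± 0.858 and 21.2% ± 0.542. The sum itself was 16.9 ± 1.49 FPKM in siC and 19.9 ± 2.33 FPKM in siMSI1. Below the filter, SCN2A had 21, 35 and 33 reads in siC and 100, 74 and 59 reads in siMSI1, or 0.0592, 0.0817 and 0.0968 against 0.286, 0.238 and 0.173 FPKM. SCN2A was singled out after its values were seen, as the 1 gene below the filter that passed in an added test on the reads recovered from FPKM (limma voom, genes with a mean of at least 10 reads, log2 fold change 1.54, adjusted p = 0.000346). That test called 22.0% of protein-coding genes, and on log2(FPKM + 0.1) without a filter the adjusted p of SCN2A was 0.151.

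**Figure D4:**
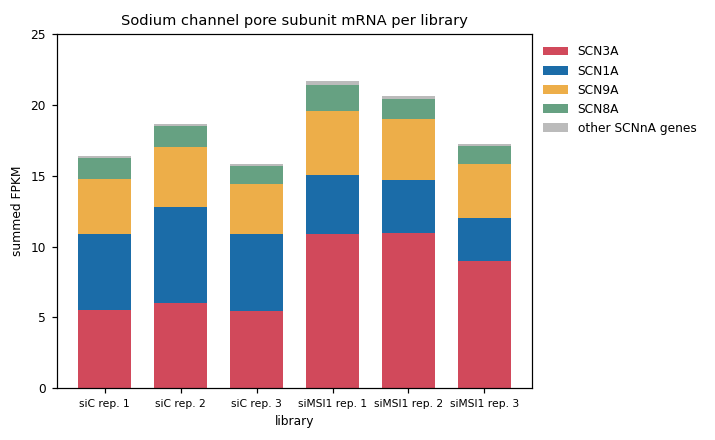
Summed FPKM of the sodium channel pore genes (y axis) in each library (x axis), stacked by gene. The SCN3A share goes from 32.2% to 34.5% in the siC libraries to 49.95% to 53.1% in the siMSI1 libraries, and the SCN1A share from 33.0% to 36.6% to 17.8% to 19.3%.

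The beta subunits of sodium channels, single-pass proteins that modulate the pores and bind adhesion molecules, were low. SCN3B was at 0.712, 0.736 and 0.756 FPKM in the siC libraries and 0.237, 0.274 and 0.361 FPKM in the siMSI1 libraries. SCN4B was at 0.295, 0.176 and 0.381 FPKM in the siC libraries and 0.649, 0.756 and 0.949 FPKM in the siMSI1 libraries. Neither pair of groups overlapped, the values lay in opposite directions, and neither gene passed the threshold in limma on log2 FPKM (log2 fold change -1.11 ± 0.32 and 1.23 ± 0.37, adjusted p = 0.0416 and 0.0438). Both are among the genes that passed with voom on the recovered reads. Each reached the mean of 0.5 FPKM only through the group where it was higher, siC for SCN3B and siMSI1 for SCN4B. This filter favours a difference, so the pass with voom is not taken as support for a change. SCN3B had 33 to 126 reads per library and SCN4B 18 to 77.

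KCNN4, the intermediate-conductance calcium-activated potassium channel of glioma and immune cells, had the largest rise among the called genes. KCNN4 (ENSG00000104783, chr19:43766533-43780976, minus strand) was at 1.68, 1.13 and 1.52 FPKM in the siC libraries and 3.63, 4.11 and 4.34 FPKM in the siMSI1 libraries. Each siMSI1 library was above each siC library, at 279% of the control mean (log2 fold change 1.43 ± 0.16, SE, adjusted p = 0.00104), and the call held without any one library. KCNN4 was the only calcium- or sodium-activated potassium channel past the filter, and KCNN3, a small-conductance relative, had 34 to 61 reads per library.

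The voltage-gated potassium channels gave 2 rises among 9 tested pores. KCND1 (ENSG00000102057, chrX:48961378-48971844, minus strand), a pore of the rapidly inactivating A-type current, was at 1.08, 1.27 and 1.42 FPKM in the siC libraries and 2.69, 2.85 and 2.96 FPKM in the siMSI1 libraries. KCNA4 (ENSG00000182255, chr11:30009730-30017030, minus strand), an A-type pore of another subfamily, was at 1.53, 1.58 and 1.51 FPKM in the siC libraries and 2.52, 2.27 and 2.42 FPKM in the siMSI1 libraries. In neither gene did the groups overlap. The log2 fold change was 1.12 ± 0.14 (SE, adjusted p = 0.00139) for KCND1, whose call held without any one library, and 0.61 ± 0.11 (adjusted p = 0.00787) for KCNA4. KCNA4 lost its call without each of the 6 libraries in turn (adjusted p of 0.0190 to 0.0362), with a log2 fold change of 0.58 to 0.65.

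KCND3, the other expressed A-type pore of the KCND family, was at a higher level than KCND1 and showed no call. It was at 4.48, 4.64 and 4.37 FPKM in the siC libraries and 4.22, 4.66 and 4.66 FPKM in the siMSI1 libraries, and the groups overlapped (log2 fold change 0.00 ± 0.09, adjusted p = 0.981). The FPKM ratio of KCND1 to KCND3 was 0.280 ± 0.0430 (SD, n = 3) in siC and 0.628 ± 0.0140 in siMSI1. KCND2 was below the filter, with 30, 65 and 28 reads in siC and 18, 13 and 16 in siMSI1.

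Of the other 6 voltage-gated potassium channel pores, 0 passed in limma, 3 had an unadjusted p under 0.05, and 2 (KCNG3 and KCNH3) passed with voom. KCNG3, a silent subunit that joins other pores, was at 4.0, 3.87 and 4.0 FPKM in the siC libraries and 2.52, 3.13 and 2.49 FPKM in the siMSI1 libraries (log2 fold change -0.53, adjusted p = 0.0132). It passed without siMSI1 replicate 2 (adjusted p = 0.00972). KCNH3, an ether-a-go-go-like channel of the forebrain, was at 6.12, 5.38 and 6.62 FPKM in the siC libraries and 4.37, 4.22 and 4.78 FPKM in the siMSI1 libraries (log2 fold change -0.43, adjusted p = 0.0209). The groups of both genes were apart, with siMSI1 below siC. KCNH4, a relative of KCNH3, KCNQ5, a subunit of the M-current, and KCNS3, another silent subunit, had log2 fold changes of 0.22, 0.41 and -0.02. The summed level of all 39 genes of this class was 28.4 ± 0.568 FPKM (SD, n = 3) in siC and 28.4 ± 0.741 FPKM in siMSI1.

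Of the 3 expressed K2P leak channels, KCNK1 fell. KCNK1 (ENSG00000135750, chr1:233614106-233672514, plus strand) was at 25.8, 24.9 and 23.5 FPKM in the siC libraries and 16.6, 17.6 and 16.3 FPKM in the siMSI1 libraries, with no overlap (log2 fold change -0.55 ± 0.07, SE, adjusted p = 0.00135). Its call was lost without siC replicate 1 (adjusted p = 0.0114). KCNK2, a leak channel opened by stretch and lipids, was at 2.48, 2.47 and 1.85 FPKM in the siC libraries and 3.54, 3.57 and 3.81 FPKM in the siMSI1 libraries. KCNK2 lay just outside the threshold in limma on log2 FPKM (log2 fold change 0.67 ± 0.13, adjusted p = 0.0102) and passed with voom (0.69 ± 0.14, adjusted p = 0.00159). Its FPKM ratio to KCNK1 was 0.0913 ± 0.0111 (SD, n = 3) in siC and 0.217 ± 0.0160 in siMSI1. The log2 fold change of KCNK12 was -0.16 (adjusted p = 0.609).

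**Figure D5:**
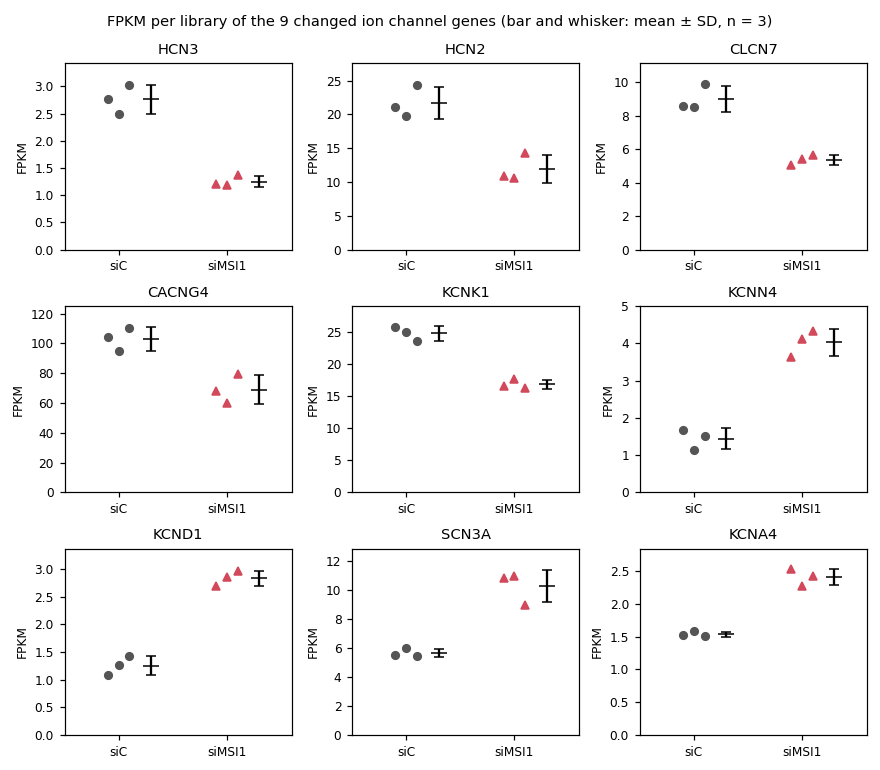
FPKM in each library (y axis, linear from 0) of the 9 genes past an adjusted p of 0.01, by group (x axis), with the mean and SD of 3 libraries beside the points. In each panel the siC and siMSI1 libraries do not overlap, with HCN3, HCN2, CLCN7, CACNG4 and KCNK1 lower and KCNN4, KCND1, SCN3A and KCNA4 higher in siMSI1.

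The inward rectifiers and auxiliary subunits, 10 tested genes, gave 0 calls in limma, with 4 at an unadjusted p under 0.05 and 1 (KCNAB2) past with voom. The inward rectifiers were led by KCNJ8, a pore of ATP-sensitive channels, at 7.28, 7.30 and 6.46 FPKM in the siC libraries and 8.11, 8.69 and 8.02 FPKM in the siMSI1 libraries (log2 fold change 0.24, adjusted p = 0.0696). KCNJ3 and KCNJ6, which form G protein-gated channels, KCNJ14 and KCNJ2 had log2 fold changes of -0.20, 0.39, 0.58 and 0.09. KCNJ14 shares 285 exon bases with GRWD1 on the same strand, a gene at 19.4 FPKM. Of the auxiliary subunits, KCNMB4 and KCNAB2, a cytoplasmic subunit with an oxidoreductase fold, had log2 fold changes of -0.30 and -0.42 (adjusted p = 0.0482 and 0.0469). KCNIP4, a calcium-binding partner of KCND pores, KCNAB3 and KCNE2 had log2 fold changes of 0.41, 0.06 and -0.09, where KCNE2 rests on 5 to 13 reads per library.

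Of the TRP channels, 5 were expressed and 0 passed in limma, at an unadjusted p under 0.05 or with voom. TRPM7, a channel fused to a protein kinase that admits magnesium, was at 4.25, 4.95 and 4.13 FPKM in the siC libraries and 5.53, 5.13 and 4.39 FPKM in the siMSI1 libraries. TRPC1, a subunit of receptor-operated channels, was at 3.25, 3.52 and 2.49 FPKM in siC and 2.83, 2.90 and 2.41 FPKM in siMSI1. The groups overlapped for both (log2 fold change 0.17 ± 0.12 and -0.17 ± 0.15, adjusted p = 0.329 and 0.447). TRPV1, the capsaicin receptor, and TRPV3, a warmth-sensitive relative, had log2 fold changes of -0.27 and -0.15. TRPC4AP, the partner protein, was at 35.7, 33.4 and 38.2 FPKM in the siC libraries and 41.9, 40.2 and 48.9 FPKM in the siMSI1 libraries (log2 fold change 0.28 ± 0.09, adjusted p = 0.0569). TRPC5OS had at most 6 reads.

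Summed over all 171 genes, the level was 376 ± 13.5 FPKM (SD, n = 3) in siC and 329 ± 16.8 FPKM in siMSI1. CACNG4 held 27.4% ± 1.17 of this sum in siC and 20.9% ± 1.94 in siMSI1, and without CACNG4 the level was 273 ± 5.53 and 260 ± 6.94 FPKM. Without TRPC4AP and TRPC5OS it was 340.0 ± 11.0 and 285 ± 12.2 FPKM. The classes did not move as one. In summed level, calcium- or sodium-activated potassium channels stood at 230% of the control mean and sodium channel pores at 117%, while HCN channels stood at 53.9%, auxiliary calcium channel subunits at 71.9% and K2P channels at 77.3%. Single genes carry most of these sums. KCNN4 held 68.5% to 90.2% of its class sum per library, CACNG4 64.7% to 73.7%, KCNK1 72.4% to 86.1%, and HCN2 at least 87.7%. The sodium channel pore sums overlapped between the groups (siC up to 18.6 FPKM, siMSI1 down to 17.3 FPKM), with SCN3A higher and SCN1A lower in siMSI1.

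Genes that act with these channels were read from 7 lists with 144 genes in all, which were likewise drawn up with results of these data known. Of these, 91 were tested, 9 fell and 5 rose. The 14 calls are 15.4% of those tested, close to the 13.1% of all tested protein-coding genes, with 9.89% lower and 5.49% higher against 7.09% and 6.01%. Of 17 tested genes of calcium entry, stores and pumps, ITPR3, the inositol trisphosphate receptor of the endoplasmic reticulum, fell from 13.0 ± 0.538 (SD, n = 3) to 6.20 ± 0.419 FPKM (log2 fold change -1.06, adjusted p = 0.000274), as did the calcium pumps ATP2A2 (-0.41) and ATP2B4 (-0.36). Of 17 tested calcium sensors and effectors, the kinase CAMKK1 rose from 5.35 ± 0.122 to 10.3 ± 0.196 FPKM (0.93, adjusted p = 0.000274). RCAN2, an inhibitor of calcineurin, and HPCAL1, a calcium-binding protein, rose as well (0.61 and 0.53), and PPP3CC, a calcineurin subunit, fell (-0.56).

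Among the other lists, ANO6, a calcium-activated scramblase and channel, and CLIC4, a chloride intracellular channel protein, fell by 0.65 and 0.89 on the log2 scale. Their list holds 17 tested genes of anion channels and related proteins, OSTM1 and CLNS1A among them. TMEM175, the potassium and proton channel of lysosomes, fell from 9.21 ± 0.90 (SD, n = 3) to 4.84 ± 0.563 FPKM (-0.92, adjusted p = 0.00135), out of 9 tested cation channel genes. ATP1B3, a beta subunit of the sodium pump, fell (-0.38, 1 of 6). Of 18 tested scaffolds and partners, DLG4 and NEDD4 rose (0.44 and 0.61) and NRCAM fell (-0.45). Of the 7 tested repressors known to act on channel genes, REST and its partners, 0 passed in limma or with voom and 1 had an unadjusted p under 0.05, and REST was at 1.48 ± 0.215 FPKM in siC and 1.65 ± 0.129 FPKM in siMSI1.

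Reads shared with other genes limit some of these values. Of the 51 tested genes, 31 share exon bases with another gene in GENCODE and 15 with a gene that was itself tested. Of the 9 changed genes, CACNG4 and CLCN7 share bases with a tested gene. The partner of CLCN7, AL031600.3 on the opposite strand, was at 0.66 FPKM, with a log2 fold change of -0.77 (adjusted p = 0.333). The library was strand-specific, but whether counting used the strand is not given in the sources used here.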

How the data were processed

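PolyA-selected, strand-specific mRNA-seq libraries of KNS42 cells (siC and siMSI1, 3 each) were analysed from 1 table. Per the labels and methods, the authors clipped reads with Cutadapt 1.14, aligned them to GRCh38 with HISAT2 2.1.0, handled alignments with SAMtools 1.5, counted reads per gene with featureCounts 1.5.3 on an Ensembl annotation and compared the groups with edgeR 3.18.1 and TMM. The deposited values are FPKM per gene and library for 58174 genes. The table's log2 fold change, p-value and FDR columns hold the authors' own comparison and were not used. Replicate numbers are those of the labels.

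Differences were tested in limma 3.58.1 (R 4.3.3) on log2(FPKM + 0.1), for the 15069 genes that averaged at least 0.5 FPKM (lmFit and two-sided eBayes, trend and robust, no block). Benjamini-Hochberg adjustment ran over these genes, with a threshold of 0.01. Fold changes are on the log2(FPKM + 0.1) scale, which understates those of low genes. Reads were recovered from FPKM and gene length, and 100% of the values above 0 were whole within 0.001 reads, with library factors of 0.977 to 1.03. These reads were tested with limma's voom as alternatives. The genes described in full are all that passed the threshold, the highest of each class and the tested members of classes with a changed gene. Some genes are counted but not reported here by name. The symbol rule that gives the members, and the gene lists, were chosen with earlier results of these data known. Of the alternatives, 18 were planned and 1, voom on genes with a mean of at least 10 reads, was chosen after seeing the data. Positions come from GENCODE release 44 and promoters from RefSeq. The fit was tested on simulated data. Python 3.11.15 with pandas 2.3.3, numpy 2.4.6 and matplotlib 3.10.9 was used for tables and plots. Floors of 3 reads cover counting error only.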

Additional observations from a re-analysis of the deposited data

How the results depend on the processing

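Of 9 called channel genes, 3 were left when a 2-fold change was also required (1 lower, 2 higher), and 21 passed an adjusted p of 0.05. On the recovered reads, voom called 19, voom with the replicate block 25, and voom on genes with a mean of at least 10 reads, chosen after seeing the data, 20 of 66. Leaving out 1 library gave 4 to 9 calls, the lowest without siC replicate 1. Without a filter 6 of 142 were called, and with the replicate block alone 9, 8 of them shared with the fit without it. Replicate numbers gave no clear pairing of the samples (correlations of deviations of -0.066, 0.078 and 0.083), which does not show that they were unpaired. The siC replicates 2 and 3 correlated best with their own number in siMSI1, and siC replicate 1 did not. For the related lists, 14 calls became 1 with a 2-fold change, 31 at 0.05, 8 without trend and robust, 7 without a filter, 30 with voom in both filters and 46 with voom and the replicate block, and 5 to 13 without 1 library, each library except siMSI1 replicate 3 giving 6 or fewer. MSI1 passed in each of the 19 alternatives, with log2 fold changes of -2.45 to -2.34. Among the genes reported, the sign turned only in genes that were not called and only without 1 library, within the ranges of CACNA1H (-0.095 to 0.028), CLCN4 (-0.106 to 0.026), KCNAB3 (-0.054 to 0.172), KCND3 (-0.020 to 0.050), KCNE2 (-0.444 to 0.217), KCNJ2 (-0.065 to 0.221), KCNS3 (-0.106 to 0.054) and SCN8A (-0.092 to 0.137). Other scalings moved the median of all genes by at most 0.0123. Low depth limits the 120 genes below the filter.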

Other observations

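Below the filter of 0.5 FPKM, 43 channel genes had more than 3 reads in some library, with mean levels of 0.00786 to 0.483 FPKM, and 16 of them had the mean of 10 reads needed for the added test on recovered reads. Besides SCN2A, none of the 16 passed it at an adjusted p of 0.01. The A-type potassium channel KCND2 had a log2 fold change of -1.13 there (adjusted p = 0.0139), and on log2(FPKM + 0.1) without a filter its adjusted p was 0.155. HCN4 and CACNG6, a relative of CACNG4, reached the mean of 10 reads only through siC, the group where they were higher, and are given by their reads, with no test. These 3 were picked out after their values were seen. CACNG6 had 14, 22 and 27 reads in siC and 1, 4 and 14 reads in siMSI1, and the FPKM of the groups overlapped (siC replicate 1 at 0.504, siMSI1 replicate 3 at 0.526). HCN4 had 20, 21 and 18 reads in siC and 7, 2 and 15 reads in siMSI1, so that 1 siMSI1 library lay close to the control libraries.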
